A study of Rattus norvegicus with 4 samples.

Results

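Unshared m6A sites in genes that were methylated in both conditions are the subject of these results. N6-methyladenosine (m6A) is a methyl mark on adenosines inside mRNA. It is written by a nuclear complex around METTL3 and METTL14, removed by demethylases and read by proteins of the YTH family, which affect splicing, export, translation and decay of the transcript. Transcripts often carry several m6A sites, with many known near the stop codon and in long internal exons, so a gene can stay methylated while the set of its sites differs. In m6A immunoprecipitation sequencing an antibody pulls down methylated RNA fragments (IP), the same kind of RNA is sequenced without pull-down (input), and peaks of IP over input mark the sites.

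Members were chosen by the positions of the peaks called in these libraries. A site counted as unshared when its peak in the list of one IP library overlapped no peak of the other list by even 1 bp, while its gene had at least 1 peak in each list. By this rule 1338 of 8183 peaks in the BPA_IP list and 1397 of 8192 peaks in the Ctrl_IP list were members, 2735 of 16375 in all. Of all peaks, 26.6% of the BPA_IP list and 26.7% of the Ctrl_IP list had no overlap. Within genes with peaks in both lists these shares were 18.2% and 18.9%. The called peaks themselves thus chose the members, and number, score and fold enrichment, which come from the same calls, are given as descriptions. No site was tested between conditions.

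The cells were primary rat hippocampal neurons, which the labels give as brain (hippocampus), plated on coated coverslips, moved to neurobasal medium and given the mitotic inhibitor Ara-C at day 7 in vitro (DIV). In the BPA groups bisphenol A, a plastics monomer with hormone-like activity, was present at 1 mM for 48 h; the days were labelled DIV 12 to 14 for BPA_IP and DIV 12 to 13 for BPA_Input. The Ctrl_IP and Ctrl_Input groups carried no treatment. Each of the 4 groups was 1 library. Whether an input and its IP share a culture, and whether cultures were pooled, is not in the labels.

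Deposited input counts summed to 9774929 in BPA_Input and 9837064 in Ctrl_Input. All 9 neuron markers were present in both inputs, with a summed FPKM (an expression unit scaled for transcript length and depth) of 1480 in BPA_Input and 1356 in Ctrl_Input. All 6 astrocyte markers were present as well and summed to 6168 in BPA_Input and 6694 in Ctrl_Input, above the neuron sum. Oligodendrocyte markers summed to 136 and 133, microglia markers to 32.0 and 30.1, and vascular markers to 17.3 and 11.5, in each case BPA_Input and then Ctrl_Input. The labelled neurons were therefore sequenced with RNA carrying astrocyte markers, and the part of these other cells in the sites below was not tested. In such bulk RNA, fewer cells of a type and less RNA per cell cannot be told apart.

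Unshared sites were spread over many genes, mostly 1 per gene. The 1338 BPA sites lay in 1022 genes and the 1397 Ctrl sites also in 1022 genes, 1558 different genes in all, or 46.4% of the 3357 genes with peaks in both lists. Unshared sites of both lists occurred in 486 genes (31.2% of the 1558), of the BPA_IP list alone in 536 and of the Ctrl_IP list alone in 536. In the other 1799 genes every site was shared. A single unshared site of its list was the case for 782 of the genes with BPA sites and 760 of those with Ctrl sites. With both lists first limited to peaks of a deposited p of at most 0.05, 837 BPA sites, 838 Ctrl sites and 274 genes with both were in the class, which can include peaks whose partner fell under that limit.

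Most unshared sites were weak. The deposited score is -10 × log10 of the peak's p, so a p of 0.05 is a score of 13.0, and fold enrichment is the peak caller's ratio of IP over input. Listed scores began at 3.02 in both lists, so peaks with a p above 0.05 are included. The deposited false discovery rate (FDR) was 100% for the peaks. A site here is thus a listed peak, and a methylated gene is one with such a peak. The median score was 10.9 for BPA unshared sites, and 69.4 for the shared sites of the BPA_IP list in genes with peaks in both lists. In the Ctrl_IP list these medians were 10.2 and 66.5. A p of at most 0.05 was reached by 587 BPA unshared sites (43.9%, Wilson 95% interval 41.2 to 46.5) and by 81.8% of the shared sites of that list. For Ctrl it was 576 sites (41.2%, interval 38.7 to 43.8) and 80.5%. A score of at least 100 was reached by 122 BPA sites (9.12%) and 104 Ctrl sites (7.44%), against 42.4% and 40.8% of shared sites. Median fold enrichment was 4.70 for BPA and 4.38 for Ctrl unshared sites, and 7.13 and 6.72 for shared sites of the same lists. Intervals here and below cover counting error only, and sites of 1 gene share its RNA.

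**Figure D1:**
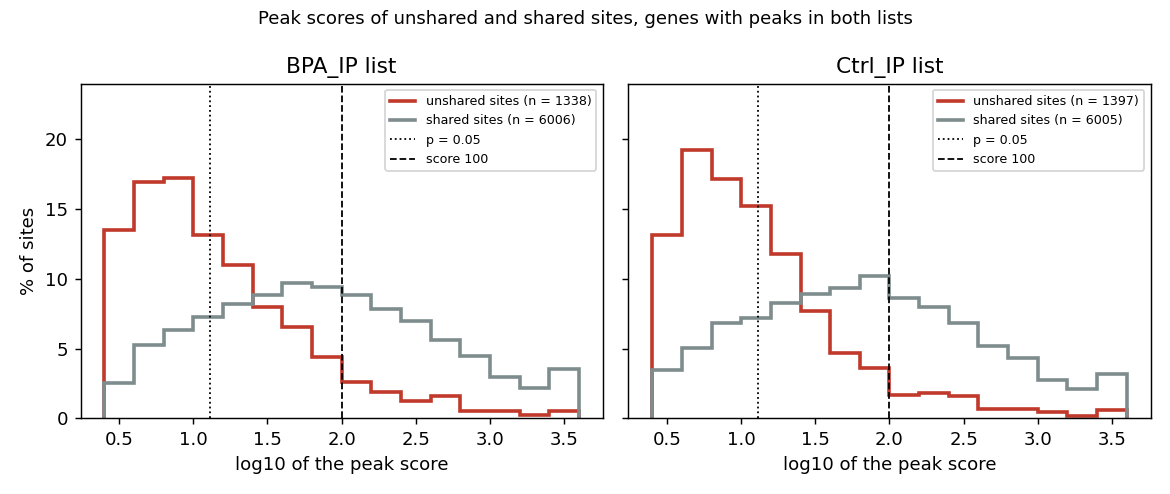
Distribution of the log10 peak score among unshared sites (red) and shared sites (grey) of genes with peaks in both lists, as % of sites, BPA_IP list left and Ctrl_IP list right; the dotted and dashed lines mark the scores 13.0 and 100. Unshared sites pile up at low scores in both lists (medians 10.9 in BPA_IP and 10.2 in Ctrl_IP), with a tail that crosses 100 in 122 BPA and 104 Ctrl sites.

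Unshared peaks were somewhat shorter than shared ones. Their median length was 141 bases in the BPA_IP list and 135 in the Ctrl_IP list, and that of shared peaks 163 and 162. Of the shared sites, 5708 had identical edges in the lists. Unshared sites outside the class, in genes with peaks in 1 list alone, had much the same scores, with a median of 9.72 in the BPA_IP list (839 sites) and 8.66 in the Ctrl_IP list (790 sites), and were longer, with medians of 177 and 181.5 bases.

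Unshared sites seldom lay close to a peak of the other list. The nearest peak of the other list in the same gene was a median of 4316 genome bases away from BPA unshared sites and 4929 from Ctrl unshared sites, introns included. Within 500 bases lay 26 BPA sites (1.94%, interval 1.33 to 2.83) and 27 Ctrl sites (1.93%, interval 1.33 to 2.80). Within 2000 bases lay 384 and 415. At the edge of the rule, the closest members were a Ctrl site of Brpf3, a chromatin reader, 66 bases from a BPA peak, a Ctrl site of the potassium channel gene Kcnc1 at 75 bases, and sites of the chromatin remodelling gene Baz1a, 82 bases apart. Just inside the shared class, a BPA peak of Dtnb overlapped a Ctrl peak by 3 bases. The other peak was on another chromosome, under the same gene name, for 5 BPA and 2 Ctrl sites.

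Strong unshared sites lay nearer to the other list than weak ones. Among sites with a score of at least 100 the median gap was 1736 bases for BPA and 1016 bases for Ctrl. Gaps of at most 2000 bases made up 54.1% of these BPA sites (interval 45.3 to 62.7) and 74.0% of these Ctrl sites (interval 64.9 to 81.5). Above a p of 0.05 the shares were 21.8% (interval 19.0 to 24.9) for BPA and 22.5% (interval 19.8 to 25.5) for Ctrl. The nearest peak of the other list was itself a shared site for 72.1% of all BPA and 73.3% of all Ctrl unshared sites.

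**Figure D2:**
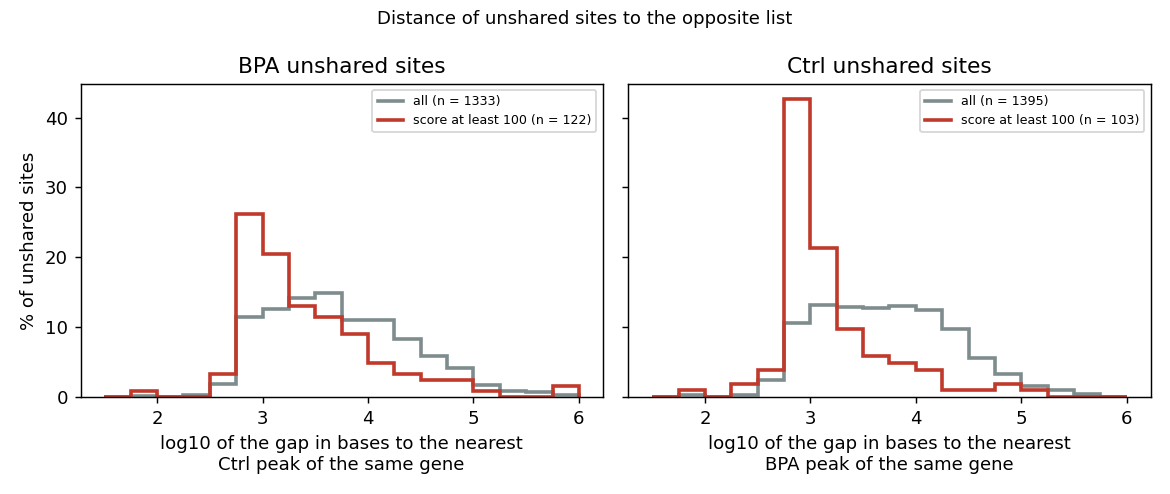
Log10 of the gap in bases between an unshared site and the nearest peak of the other list in the same gene, as % of sites, for BPA sites (left) and Ctrl sites (right); grey lines are all sites with such a peak, red lines those with a score of at least 100. Strong sites gather near 3 on the log10 scale, with medians of 1736 bases in BPA and 1016 bases in Ctrl, and all sites spread to larger gaps.

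The strongest BPA unshared site of a gene with a proper symbol and an FPKM of at least 1 was in Tnik, a kinase that acts on the cytoskeleton and in Wnt signalling. It lay on chromosome 2 from 134015626 to 134015736 (coordinates of the files, whose build is not given in the sources used here), 83.1% along the locus, with a score of 3110.83 and a fold enrichment of 22.3. It was the strongest of the 6 Tnik sites of the BPA_IP list. The nearest shared site, 1879 bases away, scored 644 in the BPA_IP list and 664 in the Ctrl_IP list. In the Ctrl_IP list Tnik had other unshared sites, with scores of 3.76 and 7.35.

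Among the next strongest were Pcca (a subunit of a mitochondrial carboxylase), Supt6h, Thoc2 (of the THO complex of mRNA export), Ezr, Eif3a and Dek (a chromatin protein). Their BPA unshared sites had scores between 1859 and 3100. Ezr encodes ezrin, which links membrane to actin; its BPA site (score 2966, chromosome 1 from 48593792 to 48593952) lay 1107 bases from a shared site with scores of 2432 in the BPA_IP and 3100 in the Ctrl_IP list. Eif3a, a subunit of a translation initiation factor, had neighbouring BPA unshared sites with scores of 2354 and 486, among 7 shared sites of which 6 had a score of 3100 in both lists. A score of 3100 was the value at which many peaks stood, 173 in the BPA_IP list and 159 in the Ctrl_IP list, 3 and 7 of them unshared sites of this class, so differences among the strongest sites are not resolved.

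With the same limits on symbol and FPKM, the 8 strongest Ctrl unshared sites were in Pcca, Ap3d1 (a subunit of a vesicle adaptor), Smc1a (cohesin), Cdk11b, Luc7l3, Sept11, Dst and Ddrgk1 (of the UFM1 conjugation pathway). The score was 1819 in Dst, 1771 in Ddrgk1 and 3100 in each of the other 6. Luc7l3, a splicing factor, had its Ctrl unshared site on chromosome 10 from 81828813 to 81828973 with a fold enrichment of 19.2. The shared site 906 bases away scored 3100 in both lists, with fold enrichments of 52.6 in BPA_IP and 50.5 in Ctrl_IP. Sept11, a septin of the cytoskeleton, had its site on chromosome 14 from 16304549 to 16304681 (fold enrichment 12.9). The gene's shared site, 789 bases away, scored 3100 in the BPA_IP list and 1580 in the Ctrl_IP list. Of these genes, Pcca, Cdk11b and Dst also had BPA unshared sites. The Pcca sites, its only peak in each list, were 95 bases apart, so a tolerance of 100 bp counts them as shared. Their fold enrichments were nearly equal, 187.23 in BPA_IP and 187.32 in Ctrl_IP.

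In several genes a strong unshared site stood beside a shared site whose own rank by score differed between the lists. Supt6h, a histone chaperone of transcription elongation, had a BPA unshared site with a score of 3100 on chromosome 10 from 66142332 to 66142524. The shared site 881 bases away scored 473 in the BPA_IP list and 3202 in the Ctrl_IP list, where it was the gene's strongest by score. Its fold enrichments were closer, 8.79 in BPA_IP and 10.57 in Ctrl_IP. A further shared site on the other side scored 2705 in BPA_IP and 2903 in Ctrl_IP. By fold enrichment that further site was the gene's strongest in both lists, with 30.41 in BPA_IP and 32.95 in Ctrl_IP. The unshared site had 13.26.

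The mirror image occurred among Ctrl unshared sites. Enah, an actin regulator of growing neurites, had a Ctrl unshared site with a score of 987 on chromosome 13 from 105292993 to 105293138. The shared site 709 bases away scored 779 in the BPA_IP list and 4.27 in the Ctrl_IP list. Cdk11b, a kinase of splicing and transcription, had a Ctrl unshared site with a fold enrichment of 24.1, and the shared site 661 bases away had fold enrichments of 34.1 in BPA_IP and 6.08 in Ctrl_IP. Cep131, a centrosome protein, held both kinds. Its BPA unshared site (score 1502) stood beside a shared site of 315 in BPA_IP and 1570 in Ctrl_IP. Its Ctrl unshared site (score 959) stood beside one of 370 in BPA_IP and 35.2 in Ctrl_IP. Enah and the neighbour scores were picked after their values were seen, and scores were not scaled between lists.

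Ranks by score within each list describe this without setting scores of the lists against each other. Of BPA unshared sites with a score of at least 500, 21 had a shared site with equal edges within 2000 bases. That neighbour was the gene's strongest site in 6 cases by the BPA_IP list and in 13 by the Ctrl_IP list. Of the corresponding Ctrl unshared sites there were 20, with the neighbour strongest in 12 cases by the BPA_IP list and in 2 by the Ctrl_IP list. At a score of at least 100 the neighbour of 49 BPA sites was strongest in 18 by the BPA_IP list and 29 by the Ctrl_IP list. For 62 Ctrl sites it was 38 by the BPA_IP list and 16 by the Ctrl_IP list. Among sites with a p above 0.05 the counts were closer, 53 and 65 for 119 BPA sites, and 70 and 69 for 132 Ctrl sites, by the BPA_IP and then the Ctrl_IP list. A strong unshared site competes for the top rank in its own list alone, so the ranks are not independent of how these sites were chosen. By score, the neighbour was at least 2-fold lower in the BPA_IP than in the Ctrl_IP list beside 47.6% of BPA sites of at least 500 and 38.8% of those of at least 100, against 1142 (20%) of all 5708 shared sites with equal edges. It was at least 2-fold lower in the Ctrl_IP than in the BPA_IP list beside 40% of Ctrl sites of at least 500. Beside those of at least 100 the share was 22.6%, near the 1397 (24.5%) of all such shared sites. Most shared sites scored lower than these neighbours. Those with equal edges and a mean score over both lists of at least 100 numbered 2461. Of them, 12.6% were at least 2-fold lower in BPA_IP and 18.2% in Ctrl_IP. There were exceptions by score: beside the BPA unshared site of Rbm5, a splicing regulator (score 1426), the nearest shared site scored 52.4 in BPA_IP and 6.17 in Ctrl_IP. Its fold enrichments were 6.72 in BPA_IP and 7.38 in Ctrl_IP. The shared site on the other side scored 20.1 in BPA_IP and 260 in Ctrl_IP.

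**Figure D3:**
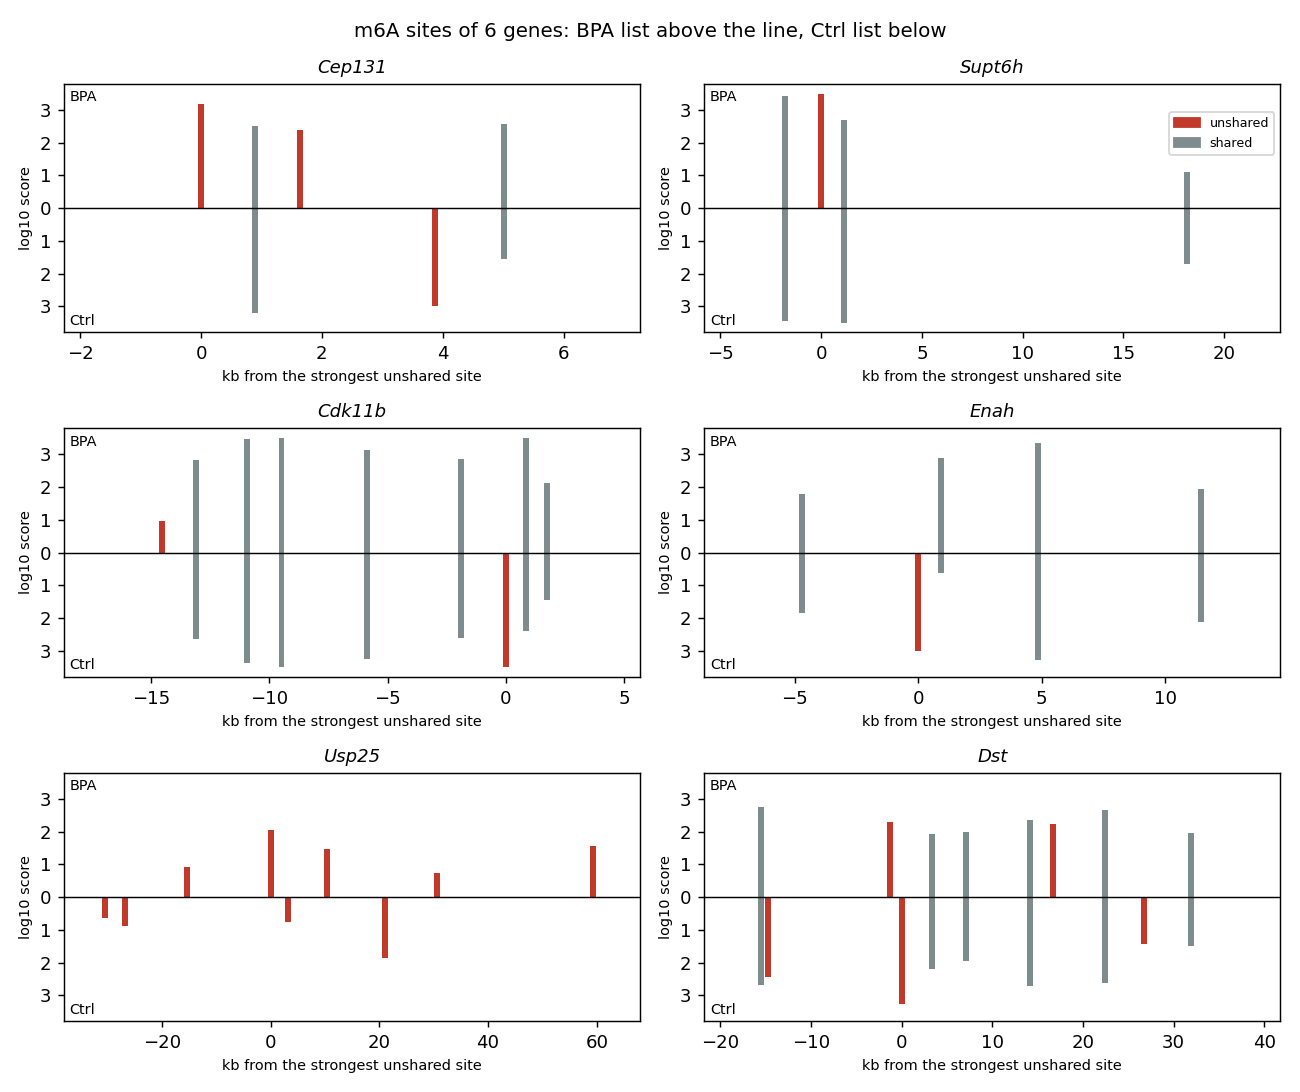
Sites of 6 genes by distance in kb from the gene's strongest unshared site along the genome, with the log10 score of the BPA_IP list above the line and of the Ctrl_IP list below it; red bars are unshared and grey bars shared sites, and Dst is drawn in part, without its sites farther downstream on the axis. In Supt6h and Cep131 the red BPA bar at 0 stands beside a grey site that is higher in Ctrl_IP, in Cdk11b, Enah and Cep131 a red Ctrl bar stands beside a grey site that is higher in BPA_IP, and Usp25 has red bars alone.

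In most genes of the class the strongest site was nonetheless the same in both lists: 62.2% of the 1558 genes (interval 59.8 to 64.6). Over all 3357 genes with peaks in both lists it was 78.3%. Those 3357 include the 1558 themselves and 1237 genes whose only peak in each list was shared. In these 1237 the strongest site is the same by construction, so the 2 shares are not a like comparison. Among the 1558 genes, the strongest site was unshared in the BPA_IP list alone in 123 (7.89%). It was unshared in the Ctrl_IP list alone in 118 (7.57%), and in both lists in 182 (11.7%). In 166 genes (10.7%) the lists had different shared sites on top. Of the 182 genes, 165 had no shared site, so their outcome was fixed by construction. Among the 1393 genes that also had a shared site, the strongest was the same in 69.6% and unshared in both lists in 17 (1.22%). Where it scored at least 100 in both lists (652 genes), it was the same in 79.1% and unshared in both in 4.

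Genes with unshared sites in both directions came in different forms. In 321 of the 486 a shared site was present as well, and in 165 none was, so that every listed site of the gene was unshared. Among those 165, 116 genes had 1 peak in each list. Their sites were the weaker ones: in genes with no shared site the median score was 9.15 for BPA (196 sites) and 7.31 for Ctrl (209 sites). In genes of both directions that had a shared site it was 11.9 for BPA (460 sites) and 10.7 for Ctrl (484 sites). The shares with a p of at most 0.05 were 35.7% (interval 29.3 to 42.6) and 27.8% (interval 22.1 to 34.2) without a shared site, and 47.4% (interval 42.9 to 52.0) and 43.8% (interval 39.4 to 48.3) with one, BPA and then Ctrl.

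Usp25, a deubiquitinase, had the most sites among genes that shared none, 5 in the BPA_IP list and 4 in the Ctrl_IP list on chromosome 11. The BPA scores were 8.39, 115, 30.3, 5.48 and 37.3 along the gene, and the Ctrl scores were 4.41, 7.44, 5.60 and 74.4. The smallest gap between the lists was 3073 bases. Stx1a, the presynaptic membrane SNARE syntaxin 1A, had BPA sites with scores of 821 and 80.0 and a Ctrl site with a score of 319. The Ctrl site lay between them, 853 bases from the weaker one. Zbtb17, a zinc finger transcription factor, had 1 BPA site (score 40.7) and 1 Ctrl site (score 120) separated by 313 bases. In Rpl36a, a ribosomal protein gene, the sites (35.5 in BPA_IP, 58.9 in Ctrl_IP) were 314 bases apart.

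Directly neighbouring unshared sites of opposite lists formed 425 pairs in 348 genes, with a median gap of 5761 bases. Both sites had a p of at most 0.05 in 86 pairs, and both a score of at least 100 in 15, with median gaps of 2130 and 1436 bases. Slu7, a splicing factor, held such a pair near the 3′ end of its locus: a BPA site with a score of 1620 and, 1016 bases away, a Ctrl site with a score of 929. Lrrc23, a leucine-rich repeat protein, had a BPA site of 546 and a Ctrl site of 3100, 889 bases apart; its shared site was on another chromosome under the same name. Dst, the cytoskeletal linker dystonin, had a BPA site of 191 and a Ctrl site of 1819, 1114 bases apart. Rrbp1, a ribosome receptor of the endoplasmic reticulum, had BPA sites of 557 and 462 and a Ctrl site of 742 among its shared sites.

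Along the gene, unshared sites followed much the same profile as shared sites of the same genes. Position was not used by the rule and was measured in deciles of the genome locus from 5′ to 3′, introns included, for 1255 BPA and 1342 Ctrl sites that fell inside the locus of their gene. The 5′-most decile held 14.4% of BPA sites (interval 12.6 to 16.5) and 13.8% of Ctrl sites (interval 12.0 to 15.7), against 15.0% of shared sites of the same genes in either list. Over all genes with peaks in both lists, 22.2% of shared sites lay there. The 3′-most decile held 13.8% of BPA sites (interval 12.0 to 15.8) and 14.0% of Ctrl sites (interval 12.3 to 15.97). Shared sites of the same genes were there in 10.9% in both lists (intervals 9.83 to 12.0 in BPA_IP and 9.87 to 12.1 in Ctrl_IP). The intervals of unshared and shared sites overlapped slightly in BPA_IP and did not in Ctrl_IP.

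**Figure D4:**
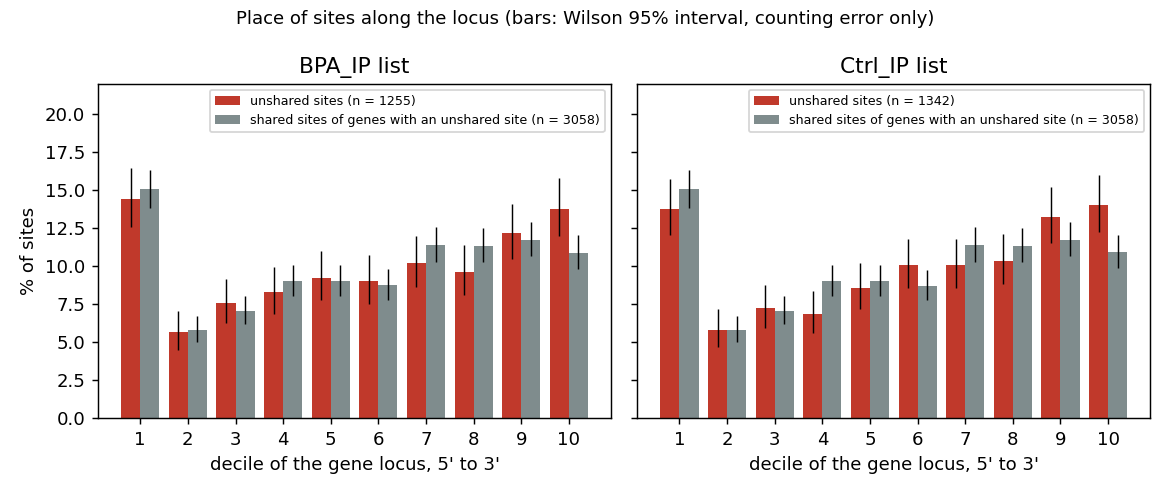
Share of sites in each decile of the gene locus from 5′ to 3′, for unshared sites (red) and shared sites of the same genes (grey), BPA_IP list left and Ctrl_IP list right, with Wilson 95% intervals as error bars. Both profiles have about 14 or 15% in the 5′-most decile, and in the 3′-most decile the red bars (13.8% in BPA_IP, 14.0% in Ctrl_IP) exceed the grey ones (10.9%).

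Seen from the order of sites, 26.2% of BPA and 26.5% of Ctrl unshared sites lay 5′ of all shared sites of the gene, 21.9% and 24.6% between shared sites, and 32.4% and 31.3% 3′ of all of them. No shared site was present on the same chromosome for 14.9% and 15.0%. A further 4.48% and 2.58% lay beyond all shared sites but in no listed locus of the gene, so their side was not known. Among sites with a score of at least 100, 29.5% of BPA (interval 22.1 to 38.1) and 46.2% of Ctrl (interval 36.9 to 55.7) stood between shared sites.

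The number of peaks in a gene and its unshared sites are tied by construction: a gene with unequal numbers of peaks in the lists has an unshared site except where 1 peak overlaps several, and each unshared site adds to its list. The shares by peak number are therefore a description alone. Of genes with 1 peak in the longer of their lists, 8.57% had an unshared site. The share was 61.2% at 2 peaks, 72.7% at 3, 83.5% at 4, 85.4% at 5 to 7 and 95% at 8 or more. Counted per peak, unshared sites made up 8.57%, 22.7%, 22.1%, 22.6%, 18.7% and 17.5% over the same steps. By mean input FPKM, unshared sites were 17.6% of BPA peaks under 5, 20.6% from 5 to 20, 16.1% from 20 to 50 and 15.4% at 50 or more. For Ctrl peaks these shares were 18.8%, 21.3%, 18.5% and 12.2%.

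Gene by gene, the Ctrl_IP list gave the longest runs. Akap9, an anchoring protein of kinases at the Golgi and centrosome, had 15 peaks in BPA_IP and 20 in Ctrl_IP, 2 and 7 of them unshared. The Ctrl sites had scores between 3.82 and 478, and the strongest lay 946 bases from a BPA unshared site. Rsf1, a subunit of a chromatin remodelling complex, had 7 peaks in BPA_IP and 13 in Ctrl_IP, with 6 Ctrl unshared sites (scores 3.23 to 92.6) and no BPA one. Dst had 3 BPA and 6 Ctrl unshared sites. Col5a1, a collagen chain, had 5 BPA unshared sites (scores 3.10 to 13.4) and 3 Ctrl ones. Atp8b2, a lipid flippase, had 5 BPA unshared sites with scores of 6.91 to 61.9, 4 of them outside its listed locus.

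By function, genes of chromatin and transcription held as many BPA as Ctrl unshared sites. Over all genes with peaks in both lists, 46.4% held an unshared site, and 18.2% of BPA peaks and 18.9% of Ctrl peaks were unshared; the counts of each group below are to be read against these shares. Of 32 chromatin and transcription genes with peaks in both lists, 22 held an unshared site (68.75%): 8 in BPA alone, 7 in both and 7 in Ctrl alone. Unshared sites were 21 of 145 peaks in each list, 14.5%, with median scores of 15.5 in BPA and 15.1 in Ctrl. Smarca4, the ATPase of a remodelling complex, had a BPA site with a score of 81.8 and Ctrl sites of 139 and 19.4. Chd3, a remodeller, had a BPA site of 213, and its relative Chd4 Ctrl sites of 136 and 44.2. Kmt2c, a histone methyltransferase, had a BPA site of 7.41 and a Ctrl site of 239. No gene group was tested.

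Of 27 RNA processing genes 11 held an unshared site (40.7%, near the 46.4% of all genes), with 9 of 68 BPA peaks (13.2%) and 10 of 69 Ctrl peaks (14.5%) unshared. Srrm1, a splicing coactivator, had a BPA site with a score of 141 and Ctrl sites of 14.1 and 11.1. Srsf11, a serine- and arginine-rich splicing factor, had a Ctrl site of 273. Taf15, an RNA-binding protein, had a BPA site of 92.1, 619 bases from a shared site, and a Ctrl site of 3.73. Of the m6A machinery itself 6 genes had peaks in both lists, and 3 of them held an unshared site (50%, near the 46.4% of all genes). Unshared sites were 2 of 22 peaks in each list (9.09%), lower than the 18.2% of all BPA and 18.9% of all Ctrl peaks. Ythdc1, the nuclear m6A reader, had a Ctrl unshared site with a score of 375 on chromosome 14 from 22889328 to 22889429. Mettl14, the partner of the methyltransferase Mettl3, had a BPA site of 4.56. Zc3h13, which keeps the writer complex in the nucleus, had a BPA site of 65.6 and a Ctrl site of 29.4.

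Synaptic gene groups differed in which list held more unshared sites. Of 16 genes of glutamate receptors and the postsynaptic scaffold, 6 had BPA unshared sites alone, 1 had Ctrl sites alone and none had both. Unshared sites were 11 of 33 BPA peaks (33.3%, interval 19.8 to 50.4) and 1 of 23 Ctrl peaks (4.35%, interval 0.772 to 21.0). The intervals overlapped, and the shares over all peaks were 18.2% in BPA and 18.9% in Ctrl. Such intervals count each site as independent, while most of the 11 BPA sites were in Dlg1 and Camk2d. They are therefore no test of a gene group, here or below. Of those 11 BPA sites, 6 had a p of at most 0.05. Camk2d, a chain of the calcium- and calmodulin-dependent kinase, had BPA sites with scores of 50.1, 28.4 and 17.0; its only Ctrl peak was shared and scored 143 in BPA_IP and 4.80 in Ctrl_IP. The scaffold gene Dlg1 had 4 BPA sites, with scores of 16.9, 3.88, 3.66 and 3.18. Further BPA sites were in the scaffolds Dlgap1 (21.7), Shank1 (34.9) and Shank3 (8) and in Camk2g (4.03), and the Ctrl site was in Dlgap2 (5.36). None of these 12 sites reached a score of 100.

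Presynaptic genes had 16 of 91 BPA peaks unshared (17.6%, interval 11.1 to 26.7) and 6 of 81 Ctrl peaks (7.41%, interval 3.44 to 15.2), with overlapping intervals. The BPA share was near the 18.2% of all BPA peaks. The Ctrl share was lower than the 18.9% of all Ctrl peaks, which was not tested. Of 25 genes, 7 had BPA sites alone, 3 Ctrl sites alone and Stx1a both. A p of at most 0.05 was reached by 7 of the 16 BPA and 3 of the 6 Ctrl sites. Rims1, a scaffold of the active zone, had BPA sites of 32.6, 17.4 and 7.67, and Pclo (piccolo) of 15.96 and 10.4. Synj1, a phosphatase of vesicle endocytosis, had BPA sites of 110 and 21.7. Ctrl sites were in Ppfia3 (liprin, 47.2 and 8.76), Ppfia1 (12.5 and 7.54) and Napb (a disassembly factor of SNAREs, 41.0).

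Ion channel genes went the other way in number. Of 14 genes, 1 had BPA sites alone, 7 Ctrl sites alone and 2 both, with 4 of 25 BPA peaks (16%, interval 6.40 to 34.7) and 10 of 31 Ctrl peaks (32.3%, interval 18.6 to 49.9) unshared. The BPA share was near the 18.2% of all BPA peaks. The Ctrl share was higher than the 18.9% of all Ctrl peaks, which was not tested. The calcium channel genes Cacna1e and Cacna1c had Ctrl sites with scores of 190 and 131, and Cacna1c also a BPA site of 22.5. The sodium channel genes Scn8a, Scn2a and Scn1a had Ctrl sites of 28.7, 12.3 and 8.52. Cacna1d had BPA sites of 26.4 and 4.12 and a Ctrl site of 3.53. Genes of ubiquitin ligases and deubiquitinases had 5 of 29 BPA peaks unshared (17.2%, interval 7.60 to 34.5). Of their Ctrl peaks, 13 of 37 were unshared (35.1%, interval 21.8 to 51.2). The BPA share was again near that of all BPA peaks. The Ctrl share was higher than that of all Ctrl peaks, also not tested. Ubr4, a ligase of the N-degron pathway, had Ctrl sites of 66.2, 8.52, 5.25 and 4.65. Intervals of BPA and Ctrl overlapped in these groups. A p of at most 0.05 was reached by 2 of the 4 BPA and 4 of the 10 Ctrl ion channel sites. In the ubiquitin group it was 1 of the 5 BPA and 4 of the 13 Ctrl sites, with a median score of 8.52 for Ctrl. Over all unshared sites the shares were 43.9% in BPA and 41.2% in Ctrl.

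Of 31 cytoskeleton genes, 9 had unshared sites of both lists, 4 of BPA alone and 1 of Ctrl alone. Unshared sites were 24 of 105 BPA peaks (22.9%) and 25 of 106 Ctrl peaks (23.6%), and 14 and 16 had a p of at most 0.05. Cttn, which binds branched actin filaments, gave 3 of these BPA and 8 of these Ctrl sites, from separate loci on chromosome 1. Its input row with most reads had 427 counts in BPA_Input and 45.4 in Ctrl_Input. Without Cttn, 21 of 97 BPA peaks (21.6%) and 17 of 93 Ctrl peaks (18.3%) were unshared. The kinesin motor genes Kif21a and Kif5b had BPA sites with scores of 591 and 401, and Ctnnd2, a delta-catenin of dendrites, of 350. Mapt, the microtubule protein tau, had Ctrl sites of 348 and 42.8 and a BPA site of 10. Macf1, a crosslinker of actin and microtubules, had BPA sites of 131, 92.2 and 7.41 and a Ctrl site of 14.0. Of 8 synaptic adhesion genes, 7 held an unshared site, 1 of BPA alone, 3 of Ctrl alone and 3 of both. Unshared sites were 4 of 15 BPA peaks (26.7%, interval 10.9 to 52.0) and 6 of 17 Ctrl peaks (35.3%, interval 17.3 to 58.7). A p of at most 0.05 was reached by 0 of the 4 BPA and 3 of the 6 Ctrl sites. The teneurin genes Tenm2 and Tenm3 had 1 of each list, 80054 and 108016 bases apart. GABA genes had 1 of 7 Ctrl peaks unshared, in Gad1 (9.12), and 0 of 6 BPA peaks. Activity-regulated genes had 1 of 9 BPA peaks unshared, in Nr4a3 (9.45), and 0 of 8 Ctrl peaks.

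**Figure D5:**
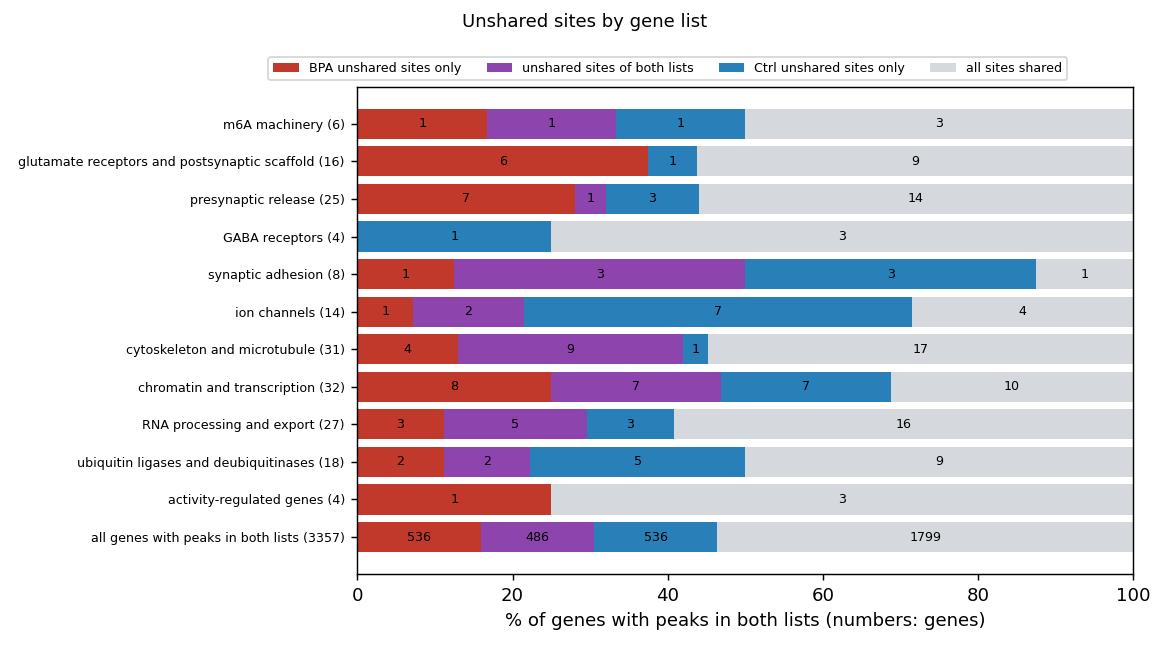
Genes with peaks in both lists by gene group, as % of the genes of the group, divided into those with BPA unshared sites alone, of both lists, of Ctrl alone, and with all sites shared; numbers in the bars are genes. Postsynaptic genes have 6 with BPA sites alone and 1 with Ctrl sites alone, ion channel genes 1 and 7, against 536 and 536 over all 3357 genes.

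The transcripts themselves were at nearly the same level in both inputs. Input ratios are log2((BPA + 1)/(Ctrl + 1)) of deposited counts, for genes averaging 10 or more. The median was -0.022 for 502 genes with BPA unshared sites alone (95% interval of the median -0.032 to -0.011), -0.013 for 468 genes with both, and 0.0062 for 516 genes with Ctrl unshared sites alone (interval -0.0078 to 0.018). All 13006 genes had a median of 0.0019. Of 1486 genes with an unshared site, 7 were 2-fold or more higher in BPA_Input (0.471%) and 9 were lower (0.606%), against 1.04% and 0.984% of all genes tested (2.02% in either direction). Genes with peaks in the BPA_IP list alone had a median of -0.030, and those with peaks in the Ctrl_IP list alone 0.021. The rule did not use these ratios directly. Peaks were called as IP over input, however, so the ratios are not independent of the calls that chose the members. With 1 library a group they carry no test.

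Unshared sites of those 16 genes were strong in some and weak in others. Gspt1, a translation termination factor, had 141 counts in BPA_Input and 23.2 in Ctrl_Input, 2 BPA unshared sites (scores 204.5 and 167), 3 Ctrl ones (133, 10.9 and 8.78) and 5 shared ones. Arid4b, a chromatin protein, had 38.6 counts in BPA_Input and 4.61 in Ctrl_Input, and its 3 unshared sites were of the Ctrl_IP list (332, 27.5 and 7.71). Amph (amphiphysin, of vesicle endocytosis) had 89.96 counts in BPA_Input and 213 in Ctrl_Input, 0.422-fold (95% exact binomial interval of the reads 0.327 to 0.543), and its 2 unshared sites were weak ones of the BPA_IP list (11.9 and 3.22). Map3k7, a kinase of inflammatory signalling, had 30.7 counts in BPA_Input and 95.9 in Ctrl_Input, with 2 unshared sites of the Ctrl_IP list (33.3 and 15.7). Counts are of the input row with most reads for each gene, and the part of transcript level in single sites was not tested.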

How the data were processed

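Total RNA of the 4 samples was sequenced without pull-down or after pull-down with an m6A kit, from directional libraries, per the labels' protocols. Groups were taken from the sample titles. Tools named by the submitters' processing notes were STAR, HISAT2 2.0.4 and cutadapt 1.9.3, each without a role. Not given in the sources used here were the counter, the genome build and the settings of the peak caller.

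The deposited input tables give an FPKM for each gene, per the file headers. They also give counts, which as deposited are estimated counts and not whole; of values under 20, 97.4% in BPA_Input and 97.2% in Ctrl_Input were multiples of a step of 1.022 and 1.009 (within 0.02 of the step), and how they were scaled is not given in the sources used here. The deposited peak lists, 1 for each IP library, name MACS peaks and give a score of -10 × log10 of the p-value, per the file headers. The fold enrichment is a ratio of IP over input that the authors deposited for each peak. The deposited FDR column is in percent, was 100 for the peaks and was not used. Peak numbers run to 13193 in the BPA_IP list and 13908 in the Ctrl_IP list, above the 8183 and 8192 peaks listed.

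Lists were compared by position with an overlap of at least 1 bp, without regard to strand. Starts were taken as counted from 0 and are printed 1 higher. Gaps were measured to peaks with the same gene name. Genes were matched to the input by symbol or gene number (1520 of 1558), and a pseudocount of 1 and a minimum mean of 10 counts were used. Where several input rows matched, the row with most reads over both inputs was taken. Counts of a gene with several loci are thus of that row alone. Shares have Wilson 95% intervals, medians order-statistic 95% intervals and read ratios exact (Clopper-Pearson) 95% intervals, all of which cover counting error only. Overlap, gaps and ratios were tested on simulated data. Python 3.11.15, pandas 2.3.3 and scipy 1.17.1 were used.

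Named genes are the 8 strongest sites per list, the 4 genes with most sites per list, the strongest genes and the closest pairs of both directions, up to 3 sites per gene group and list, and the 3 farthest sites per list; not all are printed, and further genes were picked after their values were seen. Members, gene groups and this rule were chosen with earlier results of these data known. Alternatives were a cover of 50% of the peak, a tolerance of 100 bp, limits on p and score, expressed genes, other pseudocounts, other count filters, FPKM and centring. Overlap by gene name and 2 ways of leaving out copied sites were added after the data were seen.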

Additional observations from a re-analysis of the deposited data

How the results depend on the processing

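Of 90 recomputed values of the 11 results, 74 stayed within 1.5 times the reported count or within the interval of the reported share or median, and 16 moved. All of those 16 came from limits on p or score. With both lists limited to a p of at most 0.05, there were 837 BPA and 838 Ctrl unshared sites, 274 genes with both, and 1.19% of BPA sites within 500 bp of a Ctrl peak; the share at that p is then 100% in both lists by construction. With members limited to a score of at least 100 and the opposite list kept whole, there were 122 BPA and 104 Ctrl sites, all at that p (100%), and 14 genes with both. Of these sites, 2.88% of Ctrl lay within 500 bp of a BPA peak, and 33.3% of BPA and 25% of Ctrl lay in the 5′-most or 3′-most decile. The median input ratio of genes with such sites of 1 list was -0.044 for BPA and -0.013 for Ctrl (log2), against -0.022 and 0.0062 as reported. Overlap restricted to peaks of the same gene name gave the same 1338 and 1397 sites. Overlap by strand was not run, since the peak lists give no strand. No paired analysis was possible because each group is 1 library. For the same reason no replicate could be left out, and the spread between cultures is unknown.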

Other observations

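A few sites stood in equal-length pairs, both unshared, of the same list and gene name at least 100000 bases apart, 8 BPA sites (in Atn1, Col23a1 and Pak2) and 12 Ctrl sites (in Cttn, Iqgap2, Map3k7 and Pdcd5). Pak2, a kinase of actin signalling, had 5 BPA unshared sites. Sites with scores of 18.4 and 4.73 recurred with the same lengths far along chromosome 11, with scores of 22.8 and 4.32, and a further site there scored 224. The input row of Pak2 with most reads had 46.0 counts in BPA_Input and 206 in Ctrl_Input. With peaks of either list, shared or not, counted as partners, 22 BPA sites in 15 genes (1.64%) and 23 Ctrl sites in 11 genes (1.65%) had an equal-length peak of the same gene name that far away or on another chromosome. They included the 3 BPA and 8 Ctrl sites of Cttn and the strong Ctrl site of Lrrc23, and 7 of the BPA and 6 of the Ctrl sites had a score of at least 100. The part of copied loci in these values was not tested.

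Some unshared sites lay far from the other list. A BPA site assigned to Tma7, a small ribosome-associated protein, with a score of 670 lay 623162 bases from the nearest Ctrl peak of that gene name and outside its listed locus; that distant locus held a shared peak of equal length (88 bases), with scores of 632 in BPA_IP and 1202 in Ctrl_IP. A BPA site of Aff3, a nuclear protein of transcription elongation, with a score of 65.9 lay 331793 bases away, near the 3′ end of the locus (91.2% along it). A Ctrl site of Enox1 with a score of 535 lay 111641 bases from the nearest BPA peak, and one of Srgap1, which regulates actin in migrating neurons, with a score of 53.3 lay 82049 bases away.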
